A study of Homo sapiens with 16 samples.

Results

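Autophagy delivers cytoplasmic cargo to the lysosome for degradation. The ULK kinase complex and the class III PI3-kinase complex start a membrane, lipid-transfer proteins and PI3P-binding effectors expand it, and a pair of ubiquitin-like conjugation systems attaches ATG8 proteins (the LC3 and GABARAP proteins) to it, where receptors that bind ubiquitinated cargo dock. The closed autophagosome then fuses with a lysosome, whose lumen the V-ATPase acidifies and whose hydrolases break down the content. TFEB and TFE3 are transcription factors that activate genes of both compartments. Plasma cells make and secrete large amounts of immunoglobulin, and autophagy is known to help maintain them.

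The 55 autophagy and lysosome genes described here were taken by symbol from the read count table, where all 55 were found among 23354 genes. Of these, 54 had enough reads to be tested among 14215 genes. MAP1LC3A, an LC3 gene, had at most 3 counts in a library and was left out of all tests. The genes fall into 10 roles: 4 of the ULK complex, 6 of the class III PI3-kinase complex, 5 lipid-transfer and PI3P effectors, 11 of the conjugation systems, 5 ATG8 genes with MAP1LC3A, 5 receptors, 3 transcription and nutrient regulators, 4 lysosomal membrane and tethering genes, 9 lysosomal enzymes and cofactors and 3 V-ATPase subunits.

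Ribosome-depleted total RNA was sequenced from MM1S and MM1R, human multiple myeloma cell lines that the labels call glucocorticoid sensitive and glucocorticoid resistant. Each line was given vehicle, 0.1 μM TAK-981 (an inhibitor of the SUMO-activating enzyme), 1 μM dexamethasone (Dex, a synthetic glucocorticoid) or both agents (combo), with 2 libraries in each of the 8 groups. The treated groups were exposed for 48 h, and the labels give no time for vehicle. Each of MM1S and MM1R is 1 cell line, so glucocorticoid sensitivity cannot be told apart from other differences between the lines. The labels name duplicates and do not say whether they were separate cultures, so p-values measure only the spread between these samples, which may be technical.

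Total counts ran from 15707587 to 24796539 per library, and 1 count was worth 0.0412 to 0.0619 CPM (counts scaled to the TMM-adjusted library size, the unit of all levels below unless a value is per length). All 8 plasma cell markers were counted in every library, with SDC1 at 9762 counts or more and CD38 lowest at 130 to 944 counts. Summed markers of T cells reached 5.94 CPM and those of myeloid cells 14.8 CPM, with CD3D and S100A8 at 0 in every library. Duplicates differed more than counting error in every group, by a chi-square per degree of freedom of 2.1 to 21.4, and most in MM1S with TAK-981 (21.4) and MM1S with Dex (18.9). The summed plasma cell markers of MM1S ran from 7498 to 7577 CPM with vehicle, from 6653 to 7243 with TAK-981, from 5072 to 5207 with Dex and from 4295 to 4362 with combo. Those of MM1R ran from 9948 to 9996 CPM with vehicle, from 8312 to 8329 with TAK-981, from 9416 to 9806 with Dex and from 8370 to 8629 with combo. The summed myeloid markers were between 7.79 and 7.9 CPM with vehicle and between 12.7 and 14.8 with TAK-981 in MM1R, and between 1.41 and 1.85 and then 3.81 and 4.3 in MM1S. The summed T cell markers were between 4.96 and 5.11 CPM with vehicle and between 2.51 and 3.11 with TAK-981 in MM1R, and between 3.54 and 3.71 and then 2.33 and 2.78 in MM1S. Single genes made up much of these sums, with JCHAIN at up to 4763 CPM, S100A9 at up to 11.4 and CD3E at up to 5.33. PRDM1 ran from 680 to 816 CPM over all libraries. A sum therefore does not show that its markers moved together. The part of these markers in the results below was not tested. In bulk RNA, fewer cells of a type and less RNA per cell cannot be told apart.

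Per length (CPM per kb of gene length), the level of the members spanned a wide range without treatment. PSAP, the precursor of the saposins that help enzymes degrade sphingolipids, was highest at 305 ± 15.4 (SD, n = 2) in vehicle-treated MM1S and 326 ± 10.8 (SD, n = 2) in MM1R. GABARAP followed at 158 ± 5.21 in MM1S and 156 ± 0.991 in MM1R, a difference smaller than the MM1S spread. CTSD, an aspartic protease, was the third in both lines. ULK2, a kinase close to ULK1, was the lowest tested member at 1.16 ± 0.0183 in MM1S and 0.616 ± 0.014 in MM1R. ULK1 was at 5.09 ± 0.527 and 5.69 ± 0.174.

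**Figure D1:**
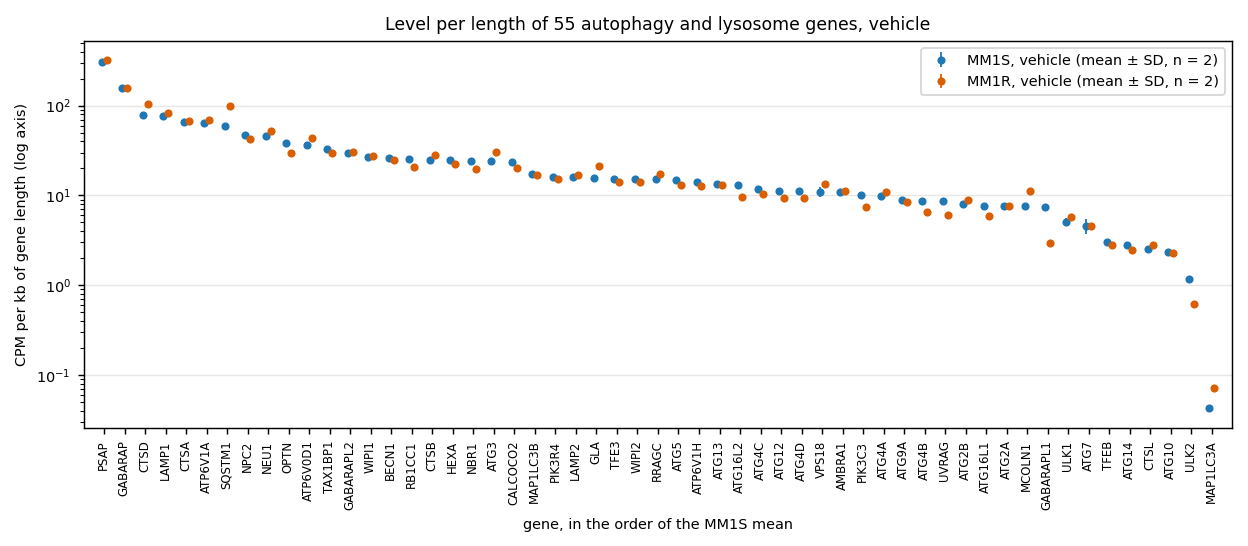
Level of the 55 genes in vehicle-treated MM1S and MM1R cells, as CPM per kb of gene length on a log axis, in the order of the MM1S mean; points are means and bars the SD of 2 libraries. PSAP is highest in both lines and MAP1LC3A lowest, and among the tested genes GABARAPL1, ULK2 and SQSTM1 show the widest gaps between the lines.

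The first question was what inhibition of SUMOylation does to these genes. With TAK-981 in MM1S, 39 of 54 members passed the threshold of an adjusted p under 0.05 (edgeR quasi-likelihood test, Benjamini-Hochberg over all genes tested), 36 of them higher and 3 lower. Over all genes 49% passed, 25.2% higher and 23.7% lower. The median log2 fold change was 0.28 over the members and 0.04 over all genes. In MM1R 28 members passed, 23 higher and 5 lower, against 53.4% of all genes (25.8% higher and 27.6% lower), with medians of 0.17 and 0.004. The changed share of the members was thus 72.2% in MM1S and, near that of all genes, 51.9% in MM1R. The summed plasma cell markers were lower and the myeloid ones higher with TAK-981 in both lines, as given above. Changes given below are fitted log2 fold changes, and most were small, with quartiles of 0.09 and 0.42 in MM1S. The MM1S count was 25 without the vehicle library of replicate 1. The MM1R count was 16 without the vehicle library of replicate 2.

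**Figure D2:**
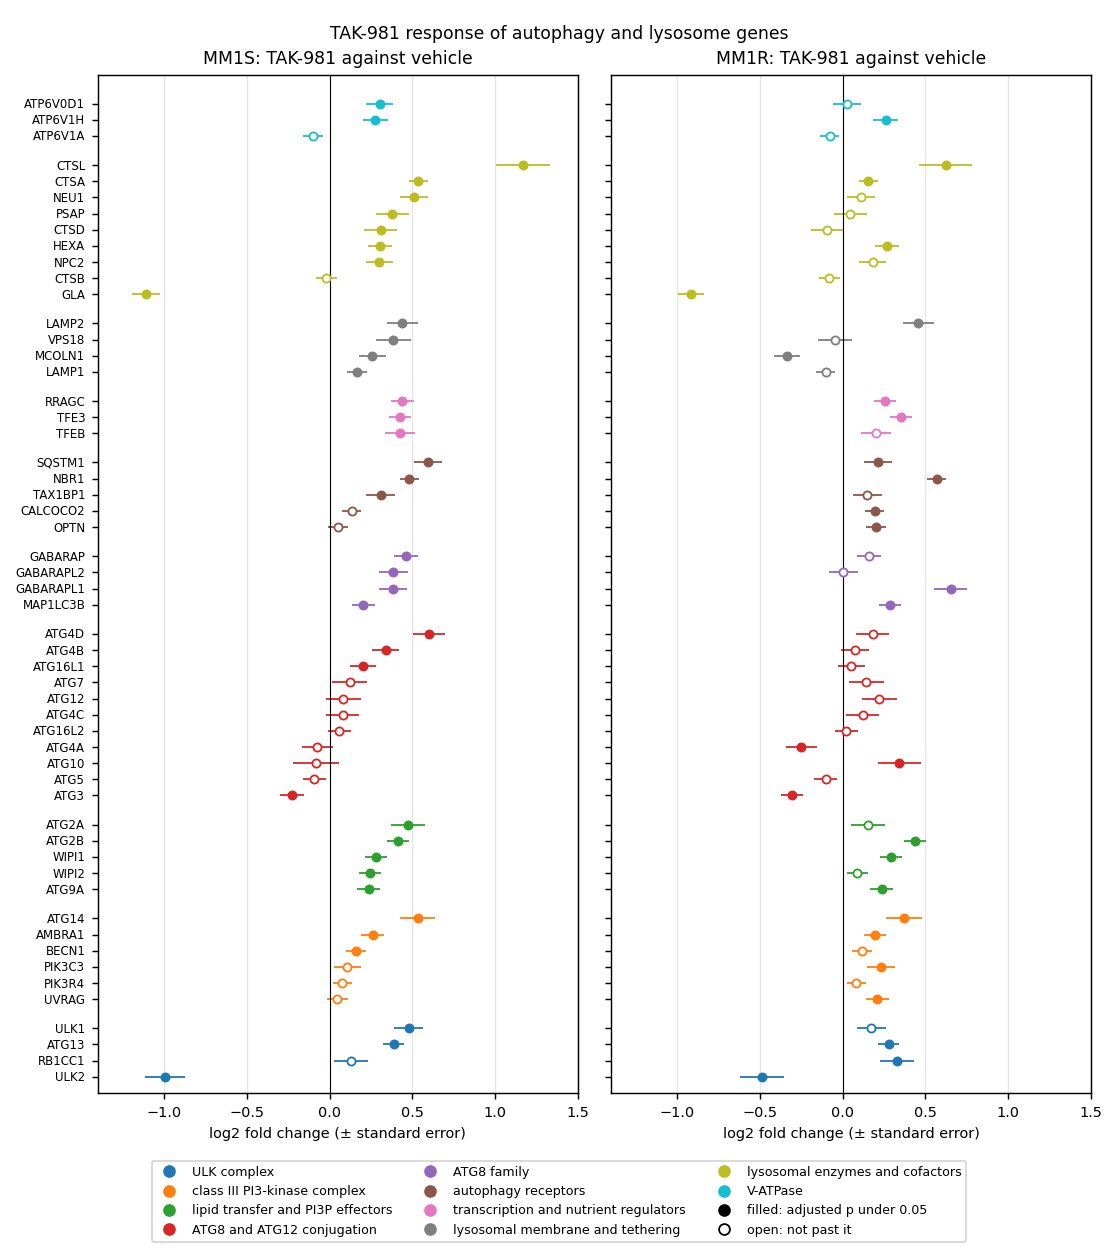
Log2 fold change of TAK-981 against vehicle (horizontal axis) for the 54 tested genes by role, in MM1S and MM1R; points are fitted values, bars are ± 1 standard error, and filled points passed an adjusted p under 0.05. Most points lie to the right of 0 in both lines, with GLA and ULK2 far to the left.

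The kinase complex that starts autophagy changed in both directions. ULK1, its kinase, had a log2 fold change of 0.48 (standard error 0.0879, adjusted p = 0.000188) in MM1S and 0.17 (standard error 0.0866, adjusted p = 0.103) in MM1R, so its change passed the threshold in MM1S. The difference between the lines was −0.31 (standard error 0.123, adjusted p = 0.166) and missed it, though it passed without the MM1S TAK-981 library of replicate 1 (−0.37). ULK2 moved the other way: it was at 10.5 and 10.7 CPM in vehicle-treated MM1S and at 5.34 and 5.3 with TAK-981, and at 5.71 and 5.53 and then 3.76 and 4.24 in MM1R. In both lines the treated pair lay below the vehicle pair. The log2 fold change was −0.99 (standard error 0.12, adjusted p = 1.50e-06) in MM1S and −0.49 (standard error 0.134, adjusted p = 0.00497) in MM1R, where it lost the threshold without the TAK-981 library of replicate 1 (−0.41). ATG13, the subunit that bridges the kinase and its scaffold, rose in both lines, by 0.39 (adjusted p = 5.19e-05) and 0.28 (adjusted p = 0.0012). RB1CC1, the scaffold, rose in MM1R by 0.33 (adjusted p = 0.0142). In MM1S its value was 0.13 (adjusted p = 0.325), with TAK-981 libraries at 210.1 and 158 CPM on both sides of the vehicle ones at 169 and 168.

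Of the 6 genes of the class III PI3-kinase complex, which makes PI3P at the growing membrane, 3 rose in MM1S and 4 in MM1R, and none fell. The changed share was 50% in MM1S, near the 49% of all genes, and 66.7% in MM1R, against 53.4%. ATG14, the subunit that targets the complex to autophagosome formation, was at 14.6 and 13.4 CPM in vehicle-treated MM1S and 21.9 and 18.6 with TAK-981, and at 12.7 and 12.1 and then 16.1 and 16 in MM1R. The groups did not overlap, and the changes were 0.53 (standard error 0.106, adjusted p = 0.00039) and 0.37 (standard error 0.108, adjusted p = 0.00754). AMBRA1, a scaffold of the complex, rose in both lines (0.26 and 0.19). All 5 lipid-transfer and PI3P effectors rose in MM1S, by 0.24 to 0.47, and 3 of them in MM1R (60%, against 53.4% of all genes). ATG2B, a lipid-transfer protein, was at 97.7 and 97.2 CPM with vehicle and 135 and 129 with TAK-981 in MM1R, and at 89.3 and 86.3 and then 123 and 111 in MM1S. It was higher in both treated libraries of each line, by 0.44 (standard error 0.067, adjusted p = 2.75e-05) in MM1R and 0.41 (standard error 0.0678, adjusted p = 5.82e-05) in MM1S.

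The conjugation systems had the lowest share of changed genes: 3 of 11 genes rose and 1 fell in MM1S, and 1 rose and 2 fell in MM1R. These shares of 36.4% and 27.3% lay below the 49% and 53.4% of all genes. ATG4D, a protease of ATG8 proteins, had the largest rise in MM1S, at 0.60 (standard error 0.0961, adjusted p = 4.49e-05). ATG3, the enzyme that transfers ATG8 proteins to lipid, fell in both lines. It was at 73.8 and 69.6 CPM with vehicle and 65.2 and 57.4 with TAK-981 in MM1S, and at 90.4 and 90.9 and then 72.2 and 74.4 in MM1R. Neither pair of groups overlapped. Its change was −0.23 (standard error 0.0706, adjusted p = 0.0125) in MM1S, where it lost the threshold without the vehicle library of replicate 1 (−0.19), without the TAK-981 library of replicate 2 (−0.14) and when the other groups were left out of the fit (−0.25), and −0.31 (standard error 0.0688, adjusted p = 0.00107) in MM1R. ATG4A, another ATG8 protease, fell in MM1R from 27.6 and 29.1 CPM to 22.3 and 25.4, a change of −0.25 (standard error 0.0928, adjusted p = 0.0299) that lost the threshold under DESeq2 (−0.26) and without either vehicle library (−0.29 without replicate 1 and −0.21 without replicate 2) or the TAK-981 library of replicate 1 (−0.16).

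The ATG8 genes and the receptors rose in both lines wherever they passed the test. All 4 tested ATG8 genes rose in MM1S, by 0.20 to 0.46, and MAP1LC3B and GABARAPL1 rose in MM1R. The MM1R share was 50%, near the 53.4% of all genes. GABARAPL1 was at 8.1 and 7.92 CPM with vehicle and 13.3 and 12 with TAK-981 in MM1R, and at 20.6 and 19.6 and then 26.4 and 26.1 in MM1S. The treated pair was above the vehicle pair in each line, and the treated MM1R cells still lay below the untreated MM1S cells. The change was 0.65 (standard error 0.1, adjusted p = 2.63e-05) in MM1R and 0.38 (standard error 0.0848, adjusted p = 0.00105) in MM1S. GABARAPL1 and MAP1LC3B have near-identical copies elsewhere in the genome, so reads could have been split or shared between copies and their counts are uncertain.

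Of the 5 receptors, 3 rose in MM1S and 4 in MM1R (60% and 80%, against 49% and 53.4% of all genes). NBR1, which binds ubiquitinated cargo, was at 184 and 181 CPM in vehicle-treated MM1S and 258 and 250.5 with TAK-981, and at 149 and 149 and 225 and 218 in MM1R. No libraries overlapped, and the changes were 0.48 (standard error 0.057, adjusted p = 1.30e-06) and 0.57 (standard error 0.0571, adjusted p = 1.90e-07). SQSTM1, the most widely studied receptor, was at 354 and 371 CPM with vehicle and 501 and 594 with TAK-981 in MM1S, and at 604 and 613 and then 702 and 707 in MM1R. Both treated libraries were above both controls, the MM1S ones far apart from each other. The change was 0.60 (standard error 0.0857, adjusted p = 1.81e-05) in MM1S and 0.21 (standard error 0.0852, adjusted p = 0.0457) in MM1R. SQSTM1 overlaps MRNIP and MGAT4B on the other strand. Whether strand was used in counting is not given in the sources used here, so reads in the overlaps cannot be told apart. Of the 55 genes 16 overlap another gene of the table on the same or the other strand. CTSA, GLA and ATG16L2 overlap genes on the other strand and RRAGC and CTSD genes on the same strand.

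The 3 regulators rose together in MM1S. TFE3 was at 46.1 and 48.4 CPM with vehicle and 58.4 and 62.3 with TAK-981 in MM1R, and at 49.4 and 54.1 and then 67.5 and 71.4 in MM1S. These groups did not overlap, with changes of 0.35 (standard error 0.0672, adjusted p = 0.000251) and 0.43 (standard error 0.067, adjusted p = 3.75e-05). RRAGC, a Rag GTPase that places mTORC1 on the lysosome in response to nutrients, rose by 0.44 (standard error 0.0682, adjusted p = 3.04e-05) in MM1S, from 55 and 57.4 CPM to 79.4 and 73.1, and by 0.25 (standard error 0.067, adjusted p = 0.00384) in MM1R. TFEB rose by 0.42 (standard error 0.0908, adjusted p = 0.000767) in MM1S. Its value in MM1R was 0.20 (standard error 0.0917, adjusted p = 0.0755).

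Many genes bound by TFEB and TFE3 carry an E-box with the letters CACGTG, and the longer TCACGTGA is the core of the motif known as CLEAR. RefSeq promoters (GRCh38.p14, 250 bases before to 50 after the start site, 300 in all) were matched for 44 of the 55 genes. These letters read the same on both strands. CACGTG was found in 9 of the 44 windows (20.5%) and in 7.43% of 27305 promoters of that length, and TCACGTGA, whose matches all hold CACGTG, in 5 (11.4%) and in 1.04%. The 9 genes were ATG14, ATG3, RRAGC, LAMP1, MCOLN1, CTSA, CTSD, NEU1 and ATP6V0D1. With TAK-981 in MM1S 8 of these 9 rose and ATG3 fell, and in MM1R ATG14, RRAGC and CTSA rose and ATG3 and MCOLN1 fell. Of all 44 genes with a window, 30 rose in MM1S and 18 in MM1R. The 27305 promoters are of all genes, tested or not, and the members were chosen as autophagy and lysosome genes. The higher share of matches thus describes the list and is no result of the treatments. A match shows only that the letters are in the window, and whether any factor acts there was not tested. LAMP1 holds a further TCACGTGA at 2 and MCOLN1 at −38 bases from the start site, not shown. The motif is in capitals below, for MCOLN1 with the G before and the C after it. The windows shown, 1 for each of the 5 genes with TCACGTGA, were chosen because they include genes that rose and genes that fell. They lie at chr13:113297202-113297225 (plus strand, LAMP1), chr19:7522600-7522625 (plus strand, MCOLN1), chr20:45891301-45891324 (plus strand, CTSA), chr16:67481202-67481225 (minus strand, ATP6V0D1) and chr3:112561943-112561966 (minus strand, ATG3).
LAMP1: ccgcgggaTCACGTGAcgcccggg
MCOLN1: gctaccggGTCACGTGACcgaggcac
CTSA: gccggagtTCACGTGActcgtaca
ATP6V0D1: ccttatggTCACGTGAggcgcttg
ATG3: gtctagtgTCACGTGAggccccgg

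Of the 16 lysosomal members 13 rose and 1 fell in MM1S, and 5 rose and 2 fell in MM1R. Over all genes 25.2% rose and 23.7% fell in MM1S, and 25.8% rose and 27.6% fell in MM1R. All 4 lysosomal membrane and tethering genes rose in MM1S, by 0.17 to 0.44, while in MM1R LAMP2 rose and MCOLN1 fell. Their changed share in MM1R was 50%, near the 53.4% of all genes. LAMP2, an abundant membrane glycoprotein, was at 162 and 158 CPM with vehicle and 227 and 213 with TAK-981 in MM1R, a change of 0.46 (standard error 0.0929, adjusted p = 0.000532), and rose by 0.44 (standard error 0.0934, adjusted p = 0.000836) in MM1S. MCOLN1, the calcium channel of the lysosomal membrane, was at 22.7 and 24.7 CPM and then 28.8 and 27.9 in MM1S, and at 35.2 and 35.8 and then 27.8 and 28.4 in MM1R. TAK-981 left the lines at near-equal levels from unlike starting points. The change was 0.26 (standard error 0.0818, adjusted p = 0.0137) in MM1S and −0.34 (standard error 0.0784, adjusted p = 0.00138) in MM1R, and the difference between the lines was −0.60 (standard error 0.113, adjusted p = 0.00512).

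Of the 9 lysosomal enzymes and cofactors, 7 rose and 1 fell in MM1S, and 3 rose and 1 fell in MM1R. The changed share was 88.9% in MM1S, against 49% of all genes. In MM1R it was 44.4%, below the 53.4% of all genes. CTSA, a protective protein for other lysosomal hydrolases, was at 148 and 149.8 CPM with vehicle and 221 and 212 with TAK-981 in MM1S, and at 156 and 153 and then 174 and 170.3 in MM1R. No groups overlapped. Its change of 0.54 (standard error 0.056, adjusted p = 2.67e-07) in MM1S was larger than that of 0.15 (standard error 0.056, adjusted p = 0.0267) in MM1R, by −0.38 (standard error 0.0792, adjusted p = 0.00949) for MM1R minus MM1S. CTSL, a cysteine protease, had the largest rise of any member in MM1S. It went from 4.37 and 4.36 CPM to 8.35 and 11.3 in MM1S (1.17, standard error 0.163, adjusted p = 7.69e-06, 2.25-fold), and from 4.67 and 4.87 to 6.87 and 7.78 in MM1R (0.62, standard error 0.16, adjusted p = 0.00316). It was among the members with the fewest reads, at 57 to 219 counts per library, and the treated MM1S libraries differed from each other by more than the vehicle ones. NEU1, a sialidase, rose by 0.51 (standard error 0.0835, adjusted p = 5.49e-05) in MM1S, where MM1R had 0.11 (standard error 0.083, adjusted p = 0.275).

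GLA, the lysosomal alpha-galactosidase that is deficient in Fabry disease, fell most. It was at 30.4 and 29.8 CPM with vehicle and 13.2 and 14.7 with TAK-981 in MM1S, and at 41.4 and 39.7 and then 21.4 and 21.5 in MM1R. The treated pairs lay far below the controls in both lines. The change was −1.11 (standard error 0.0842, adjusted p = 3.43e-09) in MM1S and −0.92 (standard error 0.0774, adjusted p = 1.91e-08) in MM1R. GLA lies at chrX:100652779-100663001, minus strand in hg19, the build of the count table, within the span of RPL36A-HNRNPH2 on the other strand. Of the 3 V-ATPase subunits, ATP6V0D1 and ATP6V1H rose in MM1S (0.30 and 0.28) and ATP6V1H in MM1R (0.26). These shares were 66.7% and 33.3%, against 49% and 53.4% of all genes.

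Set side by side, 17 members rose in both lines, 3 fell in both (GLA, ULK2 and ATG3) and 1 rose in MM1S and fell in MM1R (MCOLN1). A further 18 rose in MM1S without passing in MM1R, 6 rose in MM1R without passing in MM1S, and ATG4A fell in MM1R alone by that count. That alone does not show a difference between lines. The test of the difference was passed by 2 members, MCOLN1 and CTSA, both lower in MM1R, and by 4.16% of all genes (3.19% higher and 0.978% lower). It was passed by 1 member without the MM1S vehicle library of replicate 1, the MM1R vehicle library of replicate 1 or the MM1R TAK-981 library of replicate 2, and by 15 without the MM1S TAK-981 library of replicate 1. MCOLN1 passed in each of these fits, and CTSA lost the threshold in the first 3, each at −0.37.

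**Figure D3:**
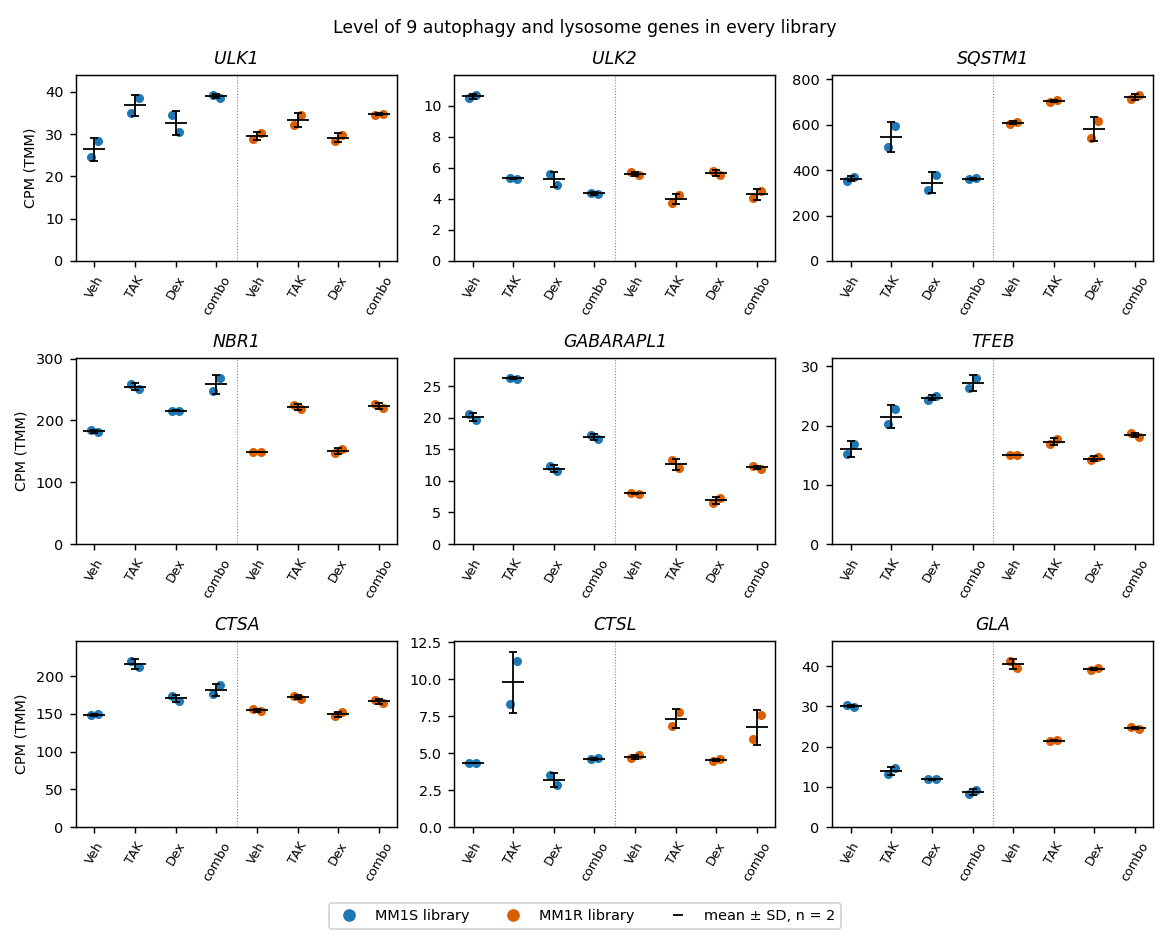
CPM per library (vertical axis, from 0) of selected members in the 8 groups, with MM1S and MM1R side by side; points are libraries, wide bars are means and error bars the SD of 2 libraries. GLA is below its vehicle level with TAK-981 in both lines and with Dex in MM1S, and NBR1 is above it in all TAK-981 and combo groups.

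The second question was what Dex does. In MM1S 22 of 54 members passed, 14 higher and 8 lower, against 42.3% of all genes (20.8% higher and 21.5% lower). The changed share of 40.7% was near that of all genes. With library size alone as the scaling the split was 12 higher and 11 lower. The median of the members was 0.03, against 0.01 over all genes. TFEB was at 15.1 and 17 CPM with vehicle and 24.4 and 25 with Dex, without overlap, a change of 0.62 (standard error 0.0896, adjusted p = 1.82e-05). Among the genes of membrane formation, ATG2A, a lipid-transfer protein, went from 47.2 and 51.2 CPM to 64.6 and 77.2 (0.53, standard error 0.101, adjusted p = 0.00039), and ATG2B rose by 0.30 (adjusted p = 0.00171). WIPI2, a PI3P effector that recruits the conjugation complex, rose from 98.1 and 105 CPM to 127 and 134 (0.36, standard error 0.0644, adjusted p = 0.000166), and the related WIPI1 fell from 51.1 and 50.8 to 39.9 and 37.3 (−0.40, standard error 0.071, adjusted p = 0.000164). These paralogs moved apart with Dex, and both had risen with TAK-981 in MM1S. ATG16L2, which resembles the ATG16L1 subunit of the conjugation complex, rose from 82 and 80.9 CPM to 110.1 and 96.2 (0.34, standard error 0.0697, adjusted p = 0.000647). ULK1 had 0.30 (standard error 0.0887, adjusted p = 0.0101), and lost the threshold without the vehicle library of replicate 1 (0.20) and without the Dex library of replicate 1 (0.21).

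The members that fell with Dex in MM1S included GLA, at 12 and 11.8 CPM with Dex against 30.4 and 29.8 with vehicle, a change of −1.34 (standard error 0.0861, adjusted p = 5.14e-10). ULK2 fell to 5.6 and 4.89 CPM (−1.01, standard error 0.12, adjusted p = 1.56e-06), from the vehicle values given above. GABARAPL1 fell to 12.3 and 11.6 CPM (−0.75, standard error 0.0926, adjusted p = 2.68e-06). Each of the 3 had Dex libraries below both vehicle libraries. ATP6V1A, the catalytic V-ATPase subunit, went from 304 and 293 CPM to 243 and 242 (−0.30, standard error 0.0597, adjusted p = 0.000532). TAK-981 and Dex were compared with the same vehicle libraries, so their values are set side by side without an overlap: GABARAPL1 had 0.38 with TAK-981 and −0.75 with Dex, GLA −1.11 and −1.34, and ULK2 −0.99 and −1.01.

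In MM1R no member passed with Dex (edgeR, 0 adjusted and 0 at an unadjusted p under 0.05, and 0 by both counts in DESeq2), as no gene of the 14215 did after adjustment (0%), while 2.78% had an unadjusted p under 0.05. The 95% confidence intervals of the members ran from −0.44 (GABARAPL1) to 0.54 (ATG10), and those of 53 of 54 lay within 0.5 of 0 on the log2 scale. GLA was at 39.1 and 39.5 CPM with Dex in MM1R, against 41.4 and 39.7 with vehicle (−0.04, standard error 0.0725, adjusted p = 1, 95% interval −0.20 to 0.11). TFEB was at 14.1 and 14.8 CPM against 15.1 and 15.1, and ULK2 at 5.77 and 5.5 against 5.71 and 5.53. ULK1 had −0.02 (standard error 0.0863, adjusted p = 1). The difference between the lines in the Dex response was passed by 16 members, 7 higher and 9 lower in MM1R than in MM1S, against 28.1% of all genes (15% higher and 13.1% lower). The members' share of 29.6% was near that of all genes. With library size alone it was 7 higher and 5 lower. The count was 9 or 10 without a vehicle library of MM1S (replicate 1 or 2), 9 or 8 without one of MM1R (replicate 1 or 2), and 8 without the MM1R Dex library of replicate 1. The difference was 1.29 (standard error 0.113, adjusted p = 9.06e-08) for GLA, 1.02 (standard error 0.172, adjusted p = 0.000183) for ULK2, −0.68 (standard error 0.128, adjusted p = 0.000538) for TFEB, −0.61 (standard error 0.143, adjusted p = 0.00369) for ATG2A and −0.37 (standard error 0.0912, adjusted p = 0.00468) for WIPI2. For ULK1 it was −0.32 (standard error 0.124, adjusted p = 0.0595), past the threshold without the MM1S vehicle library of replicate 2 (−0.43) or the MM1S Dex library of replicate 2 (−0.40).

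The combination tested whether the agents together differ from either alone. Against vehicle, combo changed 32 members in MM1S (21 higher and 11 lower, against 60.3% of all genes, 30.8% higher and 29.5% lower) and 28 in MM1R (24 higher and 4 lower, against 51.5%, 24.8% higher and 26.7% lower). The MM1R count was 17 without the vehicle library of replicate 1 and 18 without that of replicate 2. ULK1 had 0.56 (standard error 0.0883, adjusted p = 2.31e-05) in MM1S and 0.23 (standard error 0.0857, adjusted p = 0.0289) in MM1R, where it lost the threshold under DESeq2 (0.22) and without any 1 of the 4 libraries. GLA in MM1S was at 8.11 and 9.29 CPM with combo, below both single agents, a change of −1.79 (standard error 0.0937, adjusted p = 4.60e-12) or 0.29 of the vehicle level.

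Adding Dex to TAK-981 (combo against TAK-981) lowered most of the lysosomal genes in MM1S. In all, 26 of 54 members passed, 4 higher and 22 lower, against 35.1% of all genes (14.5% higher and 20.6% lower), with a median of −0.12 against −0.02. All 9 lysosomal enzymes and cofactors fell, with a median of −0.59. CTSL fell from 8.35 and 11.3 CPM with TAK-981 to 4.58 and 4.67 with combo (−1.08, standard error 0.167, adjusted p = 4.12e-05), near its vehicle values. CTSD fell from 187 and 225 CPM to 118 and 133 (−0.71, standard error 0.0982, adjusted p = 2.22e-05), below its vehicle values of 159.7 and 173. PSAP fell from 982 and 1247 CPM to 694 and 755 (−0.62, standard error 0.0997, adjusted p = 0.000131). NPC2, which exports cholesterol from the lysosome lumen, fell by 0.59 (adjusted p = 2.17e-05), and CTSB, a cysteine protease, fell by 0.52 (adjusted p = 3.50e-06). In each case both combo libraries lay below both TAK-981 libraries. TAK-981 against vehicle uses the same MM1S TAK-981 libraries, so the rise there and the fall here are not independent. Those duplicates differed most of all groups (chi-square per degree of freedom 21.4). Against vehicle, a comparison without TAK-981 libraries, combo had 1 of the 9 enzymes and cofactors higher and 5 lower, with a median of −0.24.

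With the 10 roles joined into wider groups after the values were seen, 13 of the 16 lysosomal members (membrane and tethering, enzymes and cofactors, V-ATPase) fell on adding Dex and none rose, with a median of −0.41. Over all genes 14.5% rose and 20.6% fell. Of the 9 ATG8 genes and receptors 5 fell and none rose (median −0.24), among them SQSTM1, which went from 501 and 594 CPM to 359.5 and 364 (−0.60, standard error 0.0858, adjusted p = 3.06e-05), near the vehicle values. Of the 26 genes of autophagosome formation 3 rose and 2 fell (median 0.08). The risers were ATG16L2 (0.43, adjusted p = 8.48e-05), ATG4C (0.38, adjusted p = 0.00516), a protease of ATG8 proteins, and ATG7 (0.36, adjusted p = 0.0121), the activating enzyme of both conjugation systems. WIPI1 (−0.51, adjusted p = 1.33e-05) and ATG9A (−0.26, adjusted p = 0.00706), a membrane protein of the vesicles that seed the autophagosome, fell. None of the 4 ULK or 6 PI3-kinase complex genes passed. Of the regulators, TFEB rose (0.34, adjusted p = 0.0054) while TFE3 and RRAGC fell (−0.24 and −0.41). ULK1 had 0.08 (standard error 0.0864, adjusted p = 0.487). The summed plasma cell markers also fell from TAK-981 to combo in MM1S, as given above, and their part was not tested.

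**Figure D4:**
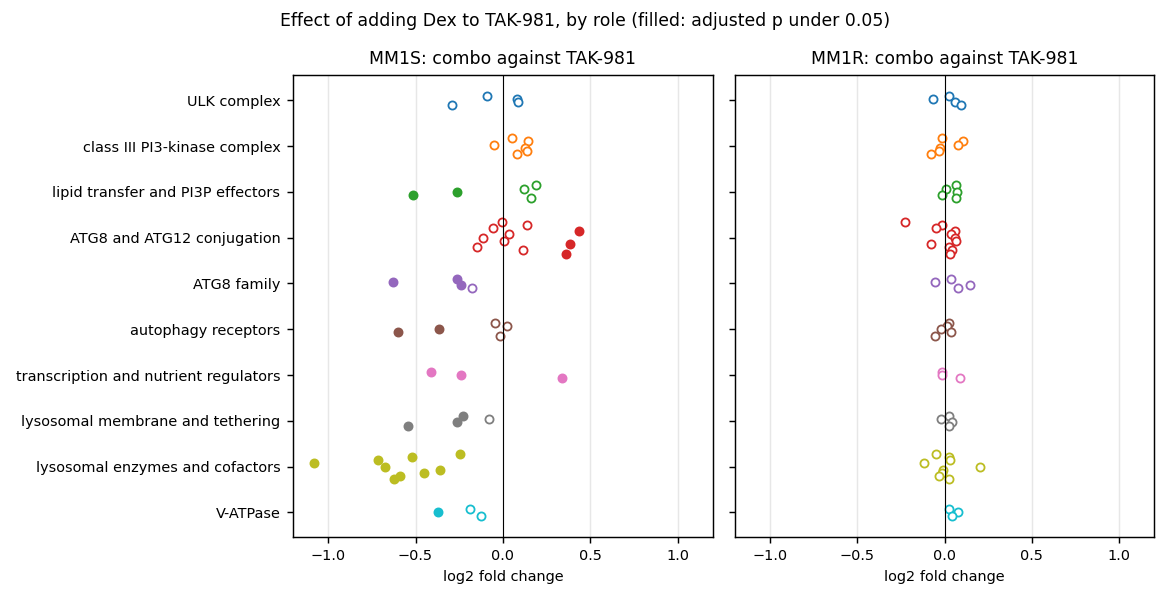
Log2 fold change of combo against TAK-981 (Dex added to TAK-981) by role in MM1S and MM1R; each point is a gene, and filled points passed an adjusted p under 0.05. In MM1S the 9 lysosomal enzymes all lie below 0 and are filled while no ULK or PI3-kinase complex gene is filled, and in MM1R the points sit close to 0 in every role.

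In MM1R adding Dex to TAK-981 changed no member (edgeR, 0 adjusted and 1 at an unadjusted p under 0.05; DESeq2, 0 and 0) and no gene after adjustment (0%, with 1.51% at an unadjusted p under 0.05). The intervals of the members ran from −0.50 (ATG10) to 0.39 (ULK2), and those of 53 of 54 lay within 0.5 of 0. The 9 lysosomal enzymes had values from −0.12 (CTSL) to 0.20 (GLA), none past the threshold. ULK1 had 0.06 (standard error 0.0863, adjusted p = 1).

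The effect of TAK-981 was next compared without and with Dex, in tests that share no libraries (TAK-981 against vehicle and combo against Dex). In MM1R 29 members passed with Dex present, 26 higher and 3 lower, against 48.4% of all genes (23.1% higher and 25.3% lower). Of the 28 that passed without Dex, 21 also passed with it (75% of the first list and 72.4% of the second), all 21 in the same direction. Over all genes these shares were 79.3% and 87.6%, and all 6019 genes that passed in both had the same direction. GABARAPL1 was at 6.51 and 7.33 CPM with Dex and 12.3 and 11.9 with combo in MM1R (0.81, standard error 0.103, adjusted p = 3.34e-06), NBR1 at 147 and 154 and 227 and 220.1 (0.58, standard error 0.0571, adjusted p = 1.68e-07), and GLA at 39.1 and 39.5 and 24.8 and 24.5 (−0.67, standard error 0.0759, adjusted p = 8.30e-07). None of these pairs of groups overlapped. ULK1 passed here, at 0.25 (standard error 0.0861, adjusted p = 0.0204), but not without the Dex library of replicate 1 (0.22) or either combo library (0.26 without replicate 1 and 0.25 without replicate 2). The MM1R count was 18 without the Dex library of replicate 1.

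In MM1S 23 members passed with Dex present, 17 higher and 6 lower, against 47.6% of all genes (22.2% higher and 25.4% lower). The count was 11 without the Dex library of replicate 2 and also without the combo library of replicate 1. Of the 39 that passed without Dex, 17 also passed with it (43.6% and 73.9% of the lists, against 64% and 65.8% over all genes), 14 in the same direction and 3 in the opposite one. Over all genes 4453 passed in both tests, 4242 in the same direction and 211 in the opposite one. The 3 members in the opposite direction were LAMP1, MAP1LC3B and PSAP. PSAP was at 826 and 887 CPM with vehicle, 982 and 1247 with TAK-981, 832 and 1023 with Dex and 694 and 755 with combo. Both combo libraries lay below all others, and the TAK-981 and Dex libraries overlapped. TAK-981 had 0.38 (standard error 0.0996, adjusted p = 0.00472) without Dex and −0.36 (standard error 0.0998, adjusted p = 0.00772) with it. ULK1 had 0.26 (standard error 0.0871, adjusted p = 0.0203) with Dex present, lost under DESeq2 (0.25), without the Dex library of replicate 2 (0.17) and without either combo library (0.24 without replicate 1 and 0.27 without replicate 2).

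The test of the interaction of TAK-981 with Dex was passed by 14 members in MM1S, 2 higher and 12 lower, against 14.9% of all genes (5.47% higher and 9.48% lower). The count was 6 without the Dex library of replicate 2, 8 without the vehicle library of replicate 1 or the combo library of replicate 1, and 23 without the TAK-981 library of replicate 1. The smallest adjusted p belonged to CTSA, at −0.44 (standard error 0.0794, adjusted p = 0.00114), PSAP at −0.74 (standard error 0.141, adjusted p = 0.00244), GLA at 0.66 (standard error 0.132, adjusted p = 0.00257), RRAGC at −0.48 (standard error 0.0975, adjusted p = 0.00306) and MAP1LC3B at −0.44 (standard error 0.0989, adjusted p = 0.00624). MAP1LC3B was at 41.1 and 41.5 CPM with vehicle, 48.4 and 46.8 with TAK-981, 51.1 and 47.9 with Dex and 41.3 and 42.9 with combo, and its interaction lost the threshold when the other groups were left out of the fit (−0.44). RRAGC was at 59.3 and 58 CPM with Dex and 56.4 and 58 with combo, and CTSA at 174 and 167 and 176 and 188. For GLA each agent alone had lowered the level and the pair lowered it by less than the sum of the log2 changes. ULK1 had −0.22 (standard error 0.124, adjusted p = 0.251). In MM1R no member passed (edgeR, 0 adjusted and 2 at an unadjusted p under 0.05; DESeq2, 0 and 0), and 0% of all genes did (2.81% unadjusted). The members' intervals ran from −0.88 (ATG10) to 0.50 (GABARAPL2), and ULK1 had 0.08 (standard error 0.122, adjusted p = 1).

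**Figure D5:**
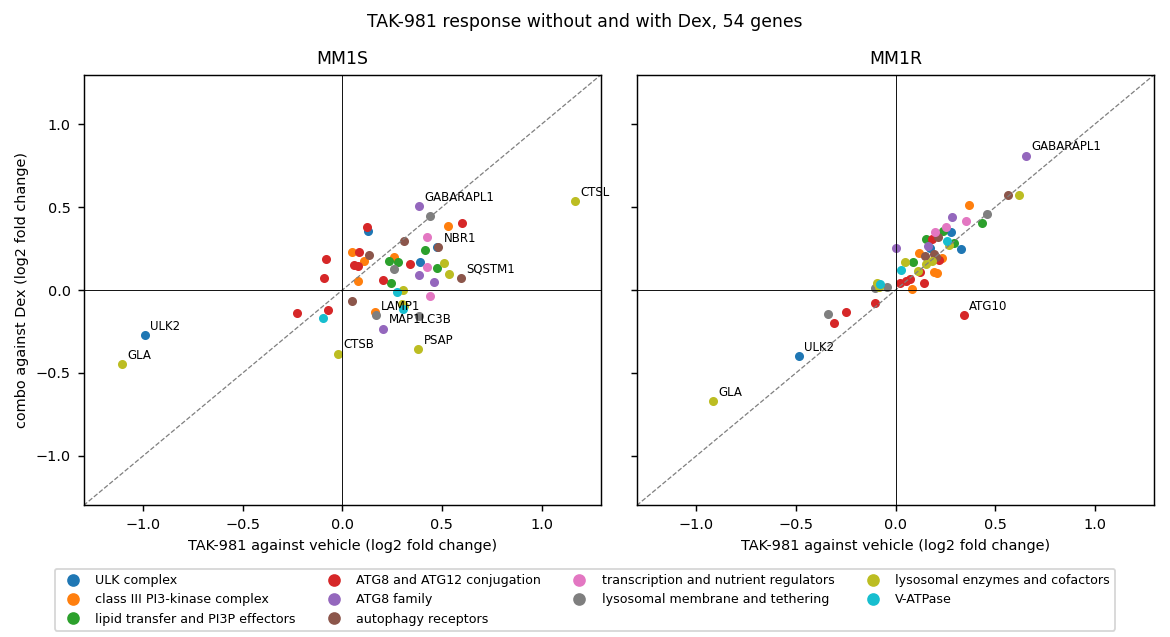
Log2 fold change of TAK-981 against vehicle (horizontal axis) and of combo against Dex (vertical axis) for the 54 genes in MM1S and MM1R, coloured by role; the dashed line marks equal values. In MM1R most points lie close to the line, with ATG10 well below it, and in MM1S the lysosomal enzymes except GLA lie below it.

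Without treatment the lines differed in 22 members, 9 higher and 13 lower in MM1R, against 48.2% of all genes (25.6% higher and 22.6% lower). With library size alone the split was 5 higher and 19 lower, and without the MM1R vehicle library of replicate 2 the count was 14. SQSTM1 was at 354 and 371 CPM in MM1S and 604 and 613 in MM1R (0.75, standard error 0.0855, adjusted p = 2.13e-06). GABARAPL1 was at 20.6 and 19.6 and 8.1 and 7.92 (−1.33, standard error 0.0954, adjusted p = 3.51e-09). The libraries of the lines did not overlap for either gene. MCOLN1, GLA, ATG3 and CTSD were also higher in MM1R, by 0.58, 0.43, 0.34 and 0.40 (adjusted p from 9.74e-06 to 0.00285). ULK2, UVRAG, ATG16L2 and OPTN were lower, at −0.92, −0.50, −0.47 and −0.38 (adjusted p from 3.55e-06 to 4.40e-05). UVRAG was at 54.4 and 53.9 CPM in MM1S and 39.3 and 37.1 in MM1R, OPTN at 137 and 147 and 111 and 108, ATG16L2 at 82 and 80.9 and 59.1 and 58.3, and CTSD at 159.7 and 173 and 213 and 225. UVRAG is a subunit of the PI3-kinase complex of endosomes and late autophagosomes, and OPTN is a receptor for ubiquitinated cargo. ULK1 had 0.16 (standard error 0.0879, adjusted p = 0.142). By the wider groups, 6 of 16 lysosomal members were higher in MM1R and none lower, and 1 of 26 genes of autophagosome formation was higher and 9 lower.

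A list of 112 other genes of the pathway, 109 of them tested, was read in the same fits. With TAK-981, 48 were higher and 14 lower in MM1S (median 0.14) and 36 higher and 22 lower in MM1R (median 0.03). The share that changed was 56.9% in MM1S, against 49% of all genes, and 53.2% in MM1R, near the 53.4% of all genes. The genes named here had the smallest adjusted p in each direction. Among the lysosomal enzymes and cofactors that rose in both lines, CTSS, a cysteine protease used in antigen presentation, had 1.09 (standard error 0.065, adjusted p = 1.73e-10) in MM1S and 1.42 (standard error 0.0669, adjusted p = 9.62e-12) in MM1R, CTSZ 1.17 (adjusted p = 3.30e-09) and 1.28 (adjusted p = 4.01e-10), and GM2A, the activator of ganglioside breakdown, 0.75 (adjusted p = 1.17e-08) and 0.58 (adjusted p = 3.06e-07). CTSF rose by 1.53 (standard error 0.134, adjusted p = 1.75e-08) in MM1S, and LAMP3, a membrane glycoprotein induced by interferon, by 1.94 (standard error 0.121, adjusted p = 4.29e-10) in MM1R. LAMP3 also had 1.34 in MM1S, the highest value of the lysosomal membrane genes there. The test of a difference between the lines was passed by 7 of the 109 genes (6.42%, against 4.16% of all genes). Of these 7, the response was higher in MM1R for 3 and lower for 4. By kind, they were 4 of 8 autophagy receptors (3 higher and 1 lower), 1 of 34 lysosomal enzymes and cofactors (lower) and 2 of 15 V-ATPase genes (lower). Of the lysosomal membrane genes 0 of 8 passed it. A gene named for 1 line was among the 4 of smallest adjusted p there, and that alone does not show a difference between lines. NPC1, the cholesterol exporter of the lysosomal membrane that takes cholesterol from NPC2, fell in both lines (−0.51 and −0.44), as did GNPTAB, a subunit of the enzyme that begins the mannose 6-phosphate tag of lysosomal hydrolases (−0.37 and −0.46). SORT1, a sorting receptor, and RETREG1, a receptor for autophagy of the endoplasmic reticulum, fell in MM1S (−0.34 and −1.38), and the V-ATPase subunit ATP6V1F and the beta-glucuronidase GUSB fell in MM1R (−0.38 and −0.47).

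Dex in MM1S gave 34 higher and 20 lower of these 109 genes (49.5%, against 42.3% of all genes), with a median of 0.07. FUCA1, a fucosidase, rose by 1.00 (standard error 0.0718, adjusted p = 2.32e-09), VPS41, a subunit of the tethering complex for fusion with lysosomes, by 0.72 (adjusted p = 3.63e-09), CTSZ by 0.98 (adjusted p = 5.30e-08) and ARSA, an arylsulfatase, by 0.61 (adjusted p = 7.62e-06). BNIP3L, a mitophagy receptor, had −1.06 (standard error 0.0812, adjusted p = 5.66e-09), SCARB2, a membrane protein that carries beta-glucocerebrosidase, −0.48 (adjusted p = 1.10e-06), TMEM41B, a scramblase of the endoplasmic reticulum, −0.62 (adjusted p = 7.70e-06) and NPC1 −0.46 (adjusted p = 1.08e-05). Adding Dex to TAK-981 in MM1S gave 12 higher and 38 lower (45.9%, against 35.1% of all genes) and a median of −0.13. Of these, 2 higher and 16 lower were among 34 lysosomal enzymes and cofactors. In MM1R it gave 0 of 109 by edgeR.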

How the data were processed

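The deposited file holds the authors' read counts per gene for RNA-seq of 16 libraries, 2 for each of 8 groups of cell line and treatment, with symbol, hg19 position and length, and no normalization. The submitters' processing notes name bcl2fastq 2.18.0.12, STAR 2.6.0, HTSeq 0.6.0, edgeR 3.28.1 and hg19. The strand setting is not given in the sources used here. The counts were used as deposited, with columns matched to samples by title, and the length in kb served only for levels per length.

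Genes were kept with filterByExpr of edgeR 4.0.16 (R 4.3.3) at its defaults (minimum count 10, minimum total count 15), scaled with TMM, and fitted to 1 term per group over 16 libraries by robust quasi-likelihood (8 residual degrees of freedom). F tests of 15 contrasts were adjusted by Benjamini-Hochberg over the 14215 genes tested, with a threshold of 0.05. Standard errors and 95% intervals belong to the fitted changes on the log2 scale. The members and lists were chosen with earlier results of these data known. Named genes were ULK1 in every comparison, and in TAK-981 and Dex in MM1S, TAK-981 in MM1R and the lines with vehicle up to 5 higher and 5 lower members of smallest adjusted p whose libraries did not overlap, up to 5 in each interaction, up to 4 higher and 4 lower of the other pathway genes, and examples of a role. The genes named for combo against TAK-981 were chosen after their values were seen. Alternatives were RLE scaling, library size alone, no filter, DESeq2 1.42.0, a replicate block, fits without the other groups, a stricter call at 0.5 or more in log2 units, and each library left out in turn. The model was tested on simulated data. The result of 1 list of cell type markers is not reported here.

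Whether replicate numbers pair the samples is not given, and the main fit used no pairing. Deviations of same-numbered libraries correlated above 0.1 in 2 of 6 pairs of groups in MM1S (0.0162 to 0.263). The highest value was that of TAK-981 with Dex, so a shared replicate effect in MM1S cannot be set aside. In MM1R 0 of 6 pairs were above 0.1 (−0.0134 to 0.0821).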

Additional observations from a re-analysis of the deposited data

Results flagged for a closer look

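A test of the difference between MM1S and MM1R in the response to TAK-981 was passed by 2 members (3.7%, against 4.16% of all genes), MCOLN1 at −0.60 (edgeR adjusted p = 0.00512) and CTSA at −0.38 (adjusted p = 0.00949), both as MM1R minus MM1S on the log2 scale. The response to Dex differed between the lines, MM1R minus MM1S, for 16 members (29.6%, against 28.1% of all genes), of which those with the smallest adjusted p were GLA at 1.29, ULK2 at 1.02, TFEB at −0.68, ATG2A at −0.61 and WIPI2 at −0.37. In MM1S the response to TAK-981 differed between cells with and without Dex for 14 members (25.9%, against 14.9% of all genes), led by CTSA at −0.44, PSAP at −0.74, GLA at 0.66, RRAGC at −0.48 and MAP1LC3B at −0.44, given as the response with Dex minus that without. For the interactions with the line, the members' share was near that of all genes. These interactions rest on groups of 2 libraries, and the counts of members move with single libraries as given beside them.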

How the results depend on the processing

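Of 181 recomputed counts of changed members, 143 stayed within 1.5 times the value reported and 38 did not, and no call shared with the reported fit changed direction. Requiring a change of 0.5 or more in log2 units left 8 members for TAK-981 in MM1S, 4 in MM1R, 5 for Dex in MM1S, 9 and 4 for combo against vehicle in MM1S and MM1R, 2 and 5 for combo against Dex, 10 for combo against TAK-981 in MM1S, 5 between the lines, and 1, 6 and 5 for the interactions of line with TAK-981, line with Dex and TAK-981 with Dex in MM1S. Fitting only the groups compared gave 24 for TAK-981 in MM1S and 4 for TAK-981 with Dex in MM1S, and no filter gave 7 for line with TAK-981. With the replicate block, which pairs libraries by their number, line with TAK-981 had 13 members and TAK-981 with Dex in MM1S 23. No other count moved by over 1.5 times with it. With 1 library left out the counts ran from 25 to 36 (TAK-981 in MM1S), 16 to 22 (TAK-981 in MM1R), 17 to 19 (combo against vehicle in MM1R), 11 to 21 and 18 to 24 (combo against Dex in MM1S and MM1R), 14 to 18 (lines), 1 to 15 (line with TAK-981), 8 to 14 (line with Dex) and 6 to 23 (TAK-981 with Dex in MM1S). A group then holds 1 library, assumed to vary like the others. Of 714 values of named members, 681 kept direction and side of the threshold, 26 lost it, 5 gained it and 2 changed sign: ULK1 with Dex in MM1R, never past the threshold, ran from −0.058 to 0.017 with 1 library left out, and was at 0.012 without the MM1R vehicle library of replicate 2 and 0.017 without the Dex library of replicate 1. Library size alone moved the median of all genes by at most 0.071 on the log2 scale. The cause of these shifts was not tested.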

Other observations

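Among the other pathway genes, those of fusion and tethering rose with TAK-981 in MM1S where they passed the test. Of 12 tested, 7 rose and none fell (58.3%, against 49% of all genes), including PLEKHM1, an adaptor that links RAB7 to the tethering complex (0.56, standard error 0.0661, adjusted p = 1.26e-06), VPS11 (0.51, adjusted p = 3.16e-06), VPS39 (0.36, adjusted p = 5.14e-05) and VPS33A (0.49, adjusted p = 0.000754), which are subunits of that complex. In MM1R 6 rose and 2 fell (66.7%, against 53.4%). Among 17 genes of mTORC1 and nutrient sensing at the lysosome, 7 rose and 1 fell in MM1S and 4 rose and 3 fell in MM1R, shares of 47.1% and 41.2% that lie below the 49% and 53.4% of all genes. In MM1S FLCN, which acts on the Rag GTPases, had 0.61 (standard error 0.0652, adjusted p = 3.70e-07) and RRAGB 0.53 (adjusted p = 0.000121), while RRAGD had −0.32 (adjusted p = 9.38e-05). Of 15 further V-ATPase subunits and accessory proteins 4 rose and 2 fell in MM1S (40%), and 1 rose and 4 fell in MM1R (33.3%). The genes named in this paragraph were chosen after their values were seen.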
